A study of Mus musculus with 16 samples.

Results

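Cluster 46 is a small group of cells that stood apart by its high cell-cycle scores among the stromal and vascular cells of mouse brown fat. It comprised 316 of 109723 cells, those to which the authors gave the number 46 in a graph clustering at resolution 1.8, where all cells fell into 61 clusters. The cells came from interscapular brown fat of C57BL6J mice, digested with collagenase and dispase, freed of floating adipocytes, red blood cells and dead cells, and sequenced as single cells by a droplet method that counts unique molecular identifiers (UMIs, tags that mark single captured RNA molecules). There were 4 housing groups of 4 libraries each: 30 °C, called thermoneutral, for a week by the series' design text; 22 °C, called room temperature, for a week by the treatment protocol; 5 °C for 2 days; and 5 °C for 7 days. No genotype, transgene or drug was labelled in any group, and the labels do not give age or sex, or whether a library came from 1 animal or from a pool, so the p-values measure the spread between libraries. None of the 316 cells carried a cell type name from the authors, against 22.2% of all cells. No cell of replicate 1 of 2 days at 5 °C carried a name, and the 22.2% counts its cells too. Gene values were not analysed here, so the proliferation markers Mki67 and Top2a were not checked, and the cluster keeps its number.

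A cell that divides copies its DNA in S phase and then passes through G2 into mitosis, the M phase. Each step needs its own set of transcripts: replication enzymes and histone supply in S, spindle and chromosome condensation proteins in G2 and M. A per-cell S score and G2M score sum such transcripts relative to control genes, so that a resting cell lies near 0 on both. In rodent brown fat, cold exposure is known to stimulate division of precursor and endothelial cells, which is why a cluster of cells with high scores is of interest in a comparison of housing temperatures.

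The features used to place these cells are not given in the sources at hand, and expression of the scored genes may have entered, so the score values are a description and carry no test. Cluster 46 ranked 1 of the 61 clusters in both mean scores. Its mean S score was 0.354 ± 0.226 and its mean G2M score 0.509 ± 0.302 (SD over 316 cells), while the mean over all other cells was -0.00611 for S and -0.0274 for G2M. Clusters 19 and 25, ranked 4 and 15 by mean S score and 4 and 3 by mean G2M score, were far below: cluster 19 had mean scores of 0.0323 for S and 0.00711 for G2M, and cluster 25 had 0.0168 and 0.0123. These lay nearest to cluster 46 by the distance between mean scores, among clusters with at least 10 cells per library on average. They serve below as its like clusters. Their distances were 0.597 and 0.601, and clusters 16 and 3 followed closely, at 0.603 each. The farthest cluster, 45, was at 0.745. Clusters 19 and 25 are thus the nearest in score but are not matched to cluster 46.

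The scores and phase calls of the cells were spread, and are given as such, not as positions in the cycle. The authors' phase call, which in every cell equalled the phase of the higher score, or G1 where both were below 0, was G2M for 179 cells, S for 131 and G1 for 6. The 131 cells called S had a mean S score of 0.491 and a mean G2M score of 0.276, and the 179 called G2M had 0.268 for S and 0.698 for G2M. Many cells therefore scored on both: 142 were above 0.3 in both scores, 55 in S alone, 88 in G2M alone and 31 in neither. Across the cells the 2 scores were nearly unrelated (Pearson r = -0.07, Spearman rho = -0.10, 316 cells that share libraries and differ in depth).

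**Figure D1:**
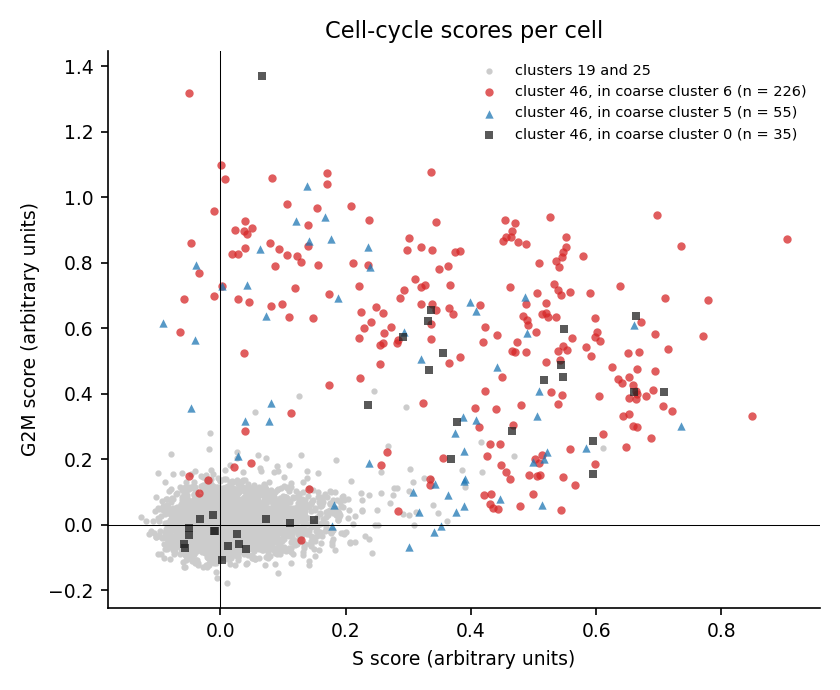
S score (x axis) against G2M score (y axis), both in arbitrary units, for each of the 316 cells of cluster 46, marked by the cluster they belong to at resolution 0.1, and in grey for the cells of clusters 19 and 25. Most cells of cluster 46 lie well above the grey cloud, spread from high S scores to high G2M scores, and a few from coarse cluster 0 lie within it.

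The cluster was stable to the resolution of the clustering, except at the coarsest. At 0.6, 0.8, 1, 1.2, 1.4 and 1.8 its 316 cells stayed together with at most 6 other cells. At 0.4 all 316 shared cluster 25 of that resolution with 79 cells that later became cluster 59. Those 79 cells had mean scores of -0.0339 for S and -0.0470 for G2M, and the median mitochondrial share of UMIs was 2.59% in cluster 46 and 5.80% in them. At resolution 0.1 the cells of cluster 46 were instead divided over 3 coarse clusters: 226 lay in coarse cluster 6, 55 in coarse cluster 5 and 35 in coarse cluster 0. No cell of these 3 coarse clusters had a name from the authors.

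The 3 portions differed in their scores. The 226 cells in coarse cluster 6 had a mean S score of 0.386 ± 0.220 and a mean G2M score of 0.574 ± 0.268 (SD over cells), and 62.8% were called G2M. The 55 cells in coarse cluster 5 had 0.290 ± 0.195 and 0.406 ± 0.306, with 49.1% called G2M. The 35 cells in coarse cluster 0 had 0.249 ± 0.257 and 0.251 ± 0.322, with 28.6% called G2M, and held all 6 cells called G1. Of these 35, 16 were below 0.3 in both scores, against 4 of 55 and 11 of 226 in the other portions. Relative to their surroundings, the cells of cluster 46 were 3.97% of the 5686 cells of coarse cluster 6, 0.944% of the 5826 cells of coarse cluster 5 and 0.0960% of the 36442 cells of coarse cluster 0. Clusters 19 and 25 also lay almost entirely in coarse cluster 6, with 99.9% and 98.8% of their cells.

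Cells of cluster 46 were rich in RNA against the other cells pooled, and ranked 7 of the 61 clusters by median UMI count. The median was 10936 UMIs and 2936.5 genes per cell, against 3375 UMIs and 1236 genes over all other cells. Within a library the median UMI count of the cluster was higher than that of the other cells in 15 of 16 libraries, by a ratio from 0.826 to 5.16, and the median number of genes in all 16, by 1.39 to 2.84. The library with the ratio below 1 was replicate 1 of 2 days at 5 °C, with a median of 8114 UMIs in the cluster and 9820 in its other cells. That library also stood apart by a median mitochondrial share of 29.2% in its other cells, against 2.47% to 6.02% in the other libraries. In cluster 46 the library medians of the mitochondrial share were 1.81% to 4.37%, and no cell reached 20%, while 6.78% of all other cells did. Among cells of the cluster the rank correlation of UMIs with the score was 0.17 for S and 0.01 for G2M (Spearman, 316 cells). Doublets, droplets with more than 1 cell, were not called, and their part in the high UMI counts was not tested.

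**Figure D2:**
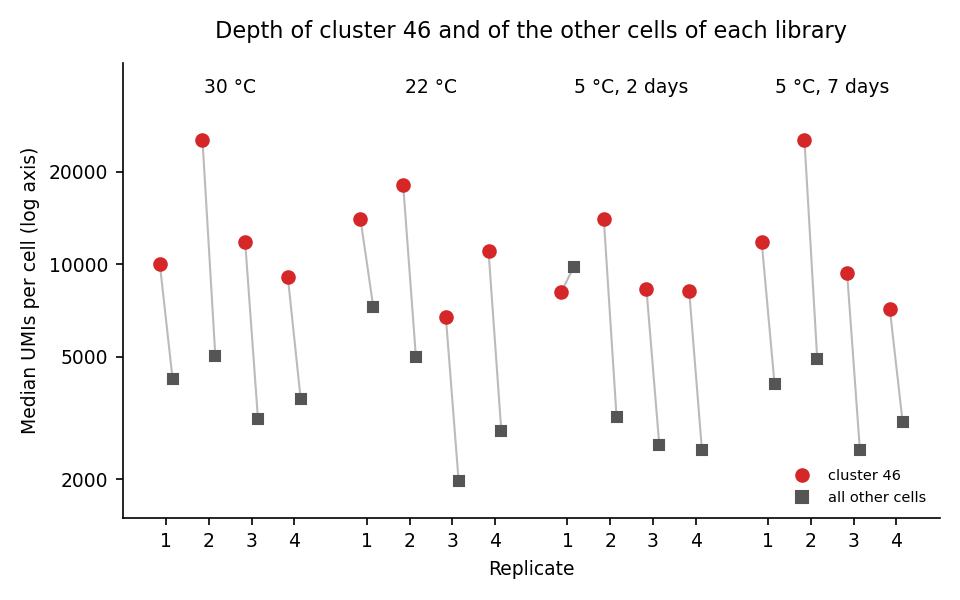
Median UMIs per cell (y axis, log scale) in cluster 46 (circles) and in all other cells (squares) of each library, grouped by housing and replicate. The cluster is higher in 15 of 16 libraries and lower in replicate 1 of 2 days at 5 °C.

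The share of cells in cluster 46 was lowest after 2 days of cold. It was 0.770%, 0.466%, 0.520% and 0.250% in thermoneutral replicates 1 to 4, and 0.422%, 0.200%, 0.190% and 0.294% at room temperature. After 2 days at 5 °C it was 0.0900%, 0.208%, 0.113% and 0.170%, and after 7 days 0.299%, 0.258%, 0.257% and 0.204%. All 4 libraries of 2-day cold lay below all 4 thermoneutral ones, while each of the other pairs of housing groups overlapped. The share of the other clusters that separated in this way is not given here. The values rest on few cells: 3 to 77 per library, with 152 in thermoneutral housing, 52 at room temperature, 56 in 2-day cold and 56 in 7-day cold. The 95% Wilson interval was 0.616% to 0.961% for the highest share, thermoneutral replicate 1, and 0.0474% to 0.171% for the lowest, 2-day replicate 1, and covers counting error only. Libraries held 1473 to 10005 cells, and in the 5 with 10000 cells or more the lowest UMI count was 1031 to 1921, against 800 to 809 in the others.

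**Figure D3:**
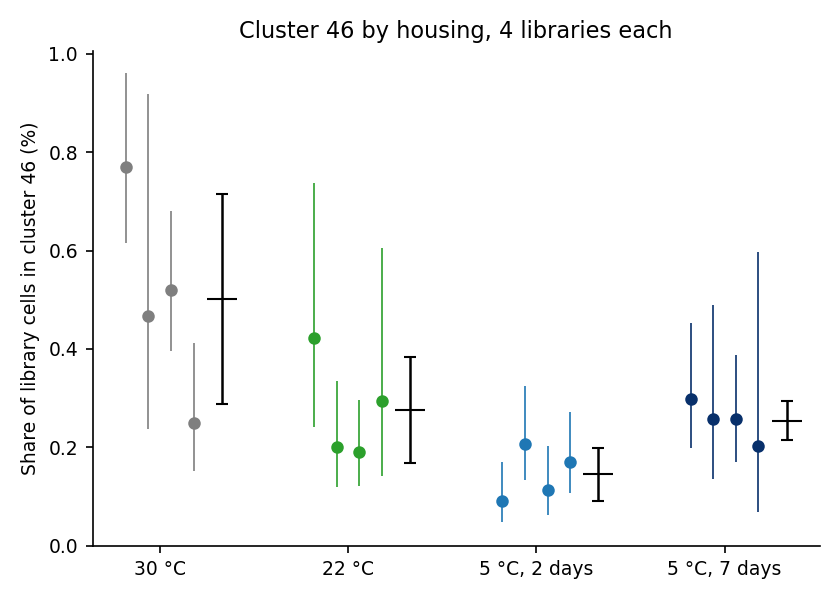
Share of each library's cells in cluster 46 (y axis, percent) by housing, as points with 95% Wilson intervals in the order of replicates 1 to 4, with the group mean ± SD in black. The libraries of 2 days at 5 °C lie between 0.0900% and 0.208%, below every library at 30 °C (0.250% to 0.770%).

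Relative to thermoneutral housing the cluster fell in 2-day cold, to 0.145% ± 0.0535 of cells, against 0.502% ± 0.213 in thermoneutral libraries (SD, n = 4 each). The log2 odds ratio was -1.75 ± 0.50 (SE; limma over 55 clusters, Benjamini-Hochberg adjusted p = 0.0342). In this comparison 9.09% of the 55 clusters passed the threshold of 0.05 in either direction and 1.82% as lower, which is cluster 46 alone, with 7.27% as higher, and its estimate was the lowest of the 55. An exact permutation test of the shares themselves gave p = 0.0286, the smallest that 4 libraries against 4 allow, and an adjusted p of 0.129 over 6 comparisons. The call was lost in 16 of 32 alternative settings, all with an estimate below 0. The 2-day library with the lowest share, replicate 1, is the library with a median of 29.2% mitochondrial UMIs in its other cells, and among cells under 20% the estimate was -1.45 (limma, adjusted p = 0.0787). With a replicate block the limma adjusted p was 0.0532. The unadjusted limma p of cluster 46, 0.00311, ranked 5 of the 55. Without clusters 11, 23, 36 and 45 its unadjusted limma p was 0.00479 and its adjusted p 0.244, with 0 clusters called. That setting also took the cells of these clusters out of every library's total, and the estimate was -1.53. The call thus depended on which other clusters were tested and counted. The adjusted p was highest, 0.405, with an estimate of -1.36, among cells with the median UMI count or more. That filter kept 312 of the 316 cells of cluster 46 and so removed mainly other cells. The call was also lost without thermoneutral replicate 1 (-1.51), 2 (-1.73) or 3 (-1.70), or without 2-day replicate 1 (-1.55), 3 (-1.65) or 4 (-1.84), with limma adjusted p between 0.0525 and 0.111. The estimate was -2.13 from replicates 1 and 2 alone, and -1.36 from replicates 3 and 4 alone.

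None of the other 5 comparisons passed, which at an SE of 0.50 does not show that the shares were alike. In 7-day cold the share was 0.254% ± 0.0391, against 0.502% ± 0.213 in thermoneutral housing (SD, n = 4 each), a log2 odds ratio of -0.83 ± 0.50 (limma, adjusted p = 0.278). At room temperature it was 0.277% ± 0.108, against the same thermoneutral libraries, with -0.81 ± 0.50 (limma, adjusted p = 0.923). In both, 0% of the 55 clusters passed, and in limma 8 and 1 of them had an unadjusted p below 0.05. The 3 comparisons with thermoneutral housing share its libraries. Against room temperature, the estimate was -0.94 ± 0.50 for 2-day cold (limma, adjusted p = 0.352, with 5.45% of clusters called) and -0.03 ± 0.50 for 7-day cold (limma, adjusted p = 0.994, with 0% called, 10 at an unadjusted p below 0.05). Between the cold groups, 7-day minus 2-day cold was 0.91 ± 0.50 (limma, adjusted p = 0.375, with 1.82% called). A test over all 4 groups at once gave an unadjusted p of 0.0259 and an adjusted p of 0.237 for cluster 46 (limma, moderated F, 4 of 55 clusters called).

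The like clusters 19 and 25 also had estimates below 0 in each housing against thermoneutrality, and neither passed in any of the 3. In 2-day cold cluster 19 was 1.43% ± 0.695 of cells, against 2.41% ± 1.69 in thermoneutral housing, and cluster 25 was 0.853% ± 0.275 against 1.53% ± 0.492 (SD, n = 4 each). Their log2 odds ratios were -0.70 ± 0.63 (limma, adjusted p = 0.639) and -0.85 ± 0.49 (limma, adjusted p = 0.497). Whether cluster 46 moved more than they did was tested on the log2 ratio of its cell number to theirs. In 2-day cold minus thermoneutral housing this ratio differed by -1.05 for cluster 19 (exact permutation, two-sided, p = 0.0571) and by -0.90 for cluster 25 (exact p = 0.0857), each with an adjusted p of 0.257 over 6 tests. Neither passed. Among cells with the median UMI count or more, the differences were 0.0221 for cluster 19 and -0.0292 for cluster 25 (exact permutation, adjusted p = 0.971 for both). That limit, 3385 UMIs, lay near the medians of cluster 19 (3460) and cluster 25 (3182). Of the 316 cells of cluster 46, 312 reached it. The ratios of the other housings differed by -0.18 to 0.08, with adjusted exact permutation p-values of 0.743 to 0.971.

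**Figure D4:**
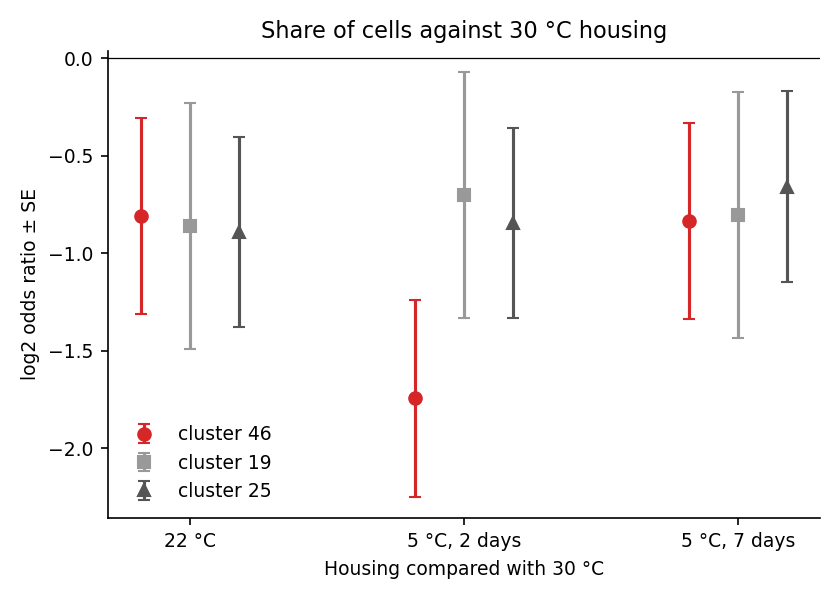
Log2 odds ratio ± SE (y axis, limma) of the share of cells in clusters 46, 19 and 25 in each housing compared with 30 °C, 4 libraries per group. All 9 estimates lie below 0, and that of cluster 46 at 2 days of cold (-1.75 ± 0.50) is the one past the threshold.

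The 3 coarse portions of cluster 46 were then followed by housing, as a description with no test, since they were chosen after their values had been seen. The portion in coarse cluster 5 had most of its cells in thermoneutral housing: 26, 3, 9 and 2 cells in replicates 1 to 4, or 40 of 55. Room temperature held 1, 0, 4 and 0 such cells, 2-day cold 0, 1, 0 and 1, and 7-day cold 6, 1, 1 and 0. As a share of each library's cells this portion was 0.00523% ± 0.00605 in 2-day cold, against 0.140% ± 0.0991 in thermoneutral housing (SD, n = 4 each), and the groups did not overlap. Of all cells of cluster 46, it made up 3.57% in 2-day cold and 26.3% in thermoneutral housing.

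The portion in coarse cluster 6 was lower in 2-day cold as well, at 0.119% ± 0.0433 of library cells, against 0.331% ± 0.136 in thermoneutral housing (SD, n = 4 each), without overlap. This portion held 46 of the 56 cells of cluster 46 in 2-day cold and 101 of 152 in thermoneutral housing. Its separation therefore largely repeats that of the whole cluster and is not a separate result. Set against coarse cluster 6 alone, the cells of this portion were 3.06%, 3.23%, 2.18% and 2.74% of that coarse cluster in the 2-day libraries. In the thermoneutral ones they were 5.34%, 5.49%, 4.58% and 5.24%. Every 2-day library thus lay below every thermoneutral one on this denominator, with the same cells counted. In 7-day cold these shares were 2.97% to 5.36%, and at room temperature 2.51% to 11.3%, both overlapping the thermoneutral range. The portion in coarse cluster 0 was 0.0209% ± 0.0196 in 2-day cold and 0.0308% ± 0.0424 in thermoneutral housing, with 0 such cells in 2 thermoneutral libraries and in 1 of 2-day cold. With all tests redone among the cells of the 3 coarse clusters, a setting chosen after the data had been seen, cluster 46 had an estimate of -1.55 ± 0.52 and did not pass (limma, adjusted p = 0.0790 over 17 clusters).

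**Figure D5:**
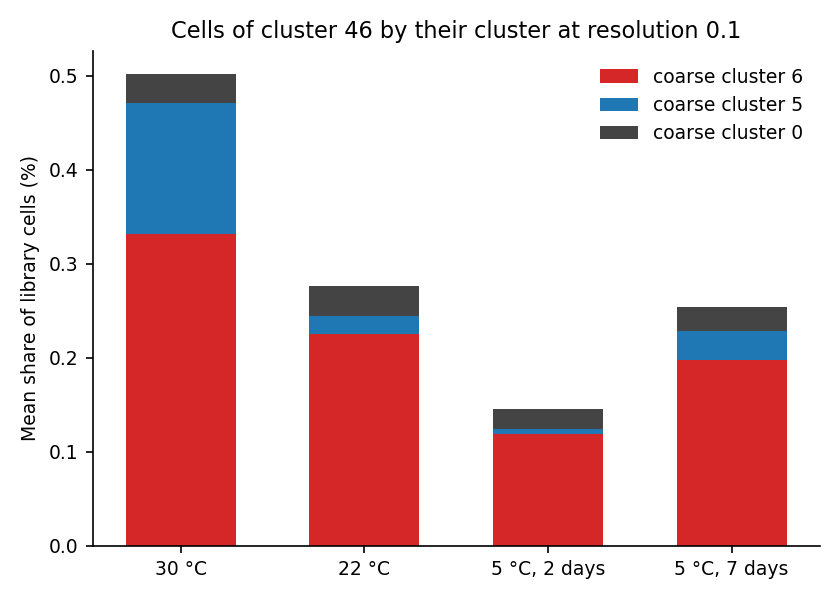
Mean share of library cells in cluster 46 (y axis, percent, 4 libraries per housing), divided by the cluster the cells belong to at resolution 0.1. The part in coarse cluster 5 is 0.00523% after 2 days at 5 °C and 0.140% at 30 °C.

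Within cluster 46, no measure of depth, quality or score passed a test over the 4 housing groups. Libraries with at least 5 cells of the cluster were used, which left out 7-day replicate 4 with its 3 cells. The mean G2M score was 0.498 ± 0.0492 in thermoneutral housing (SD, n = 4), 0.473 ± 0.152 at room temperature (n = 4), 0.590 ± 0.0237 in 2-day cold (n = 4) and 0.456 ± 0.0319 in 7-day cold (n = 3). By library, 2-day cold had 0.554, 0.604, 0.601 and 0.599, thermoneutral housing 0.545, 0.536, 0.452 and 0.459, room temperature 0.676, 0.482, 0.423 and 0.313, and 7-day replicates 1 to 3 0.435, 0.493 and 0.440. The 2-day libraries lay above the thermoneutral ones without overlap, but below room-temperature replicate 1. The 3 cells of 7-day replicate 4 had a mean of 0.768, above every 2-day library, and with them the 7-day mean was 0.534 ± 0.158 (SD, n = 4) and the exact permutation p over the 4 groups 0.525. The exact permutation test over the 4 groups gave p = 0.206, and an adjusted p of 0.647 over 6 measures. Without room-temperature replicate 1 the same exact test gave an adjusted p of 0.0177.

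The mean S score was 0.381 ± 0.0436 in thermoneutral housing, 0.305 ± 0.118 at room temperature, 0.387 ± 0.0632 in 2-day cold and 0.377 ± 0.0987 in 7-day cold. The share of the cluster called G2M averaged 54.4%, 58.3%, 63.2% and 49.7% in the same order, while among all other cells the library values were 8.04% to 27.2%. Median UMIs of the cluster averaged 14032, 12507.1, 9666.5 and 15514.5, and the median mitochondrial share 2.61%, 2.52%, 2.78% and 3.47%. These measures, and genes per cell, had exact permutation p-values of 0.232 to 0.647, each with an adjusted p of 0.647. Phase calls could not be brought to 1 depth without gene values. Between cells called G2M and cells called S, the median UMI count was higher in the first in 9 of the 15 libraries with at least 3 of each, and lower in all 4 libraries of 2-day cold, with ratios of 0.583, 0.689, 0.724 and 0.823.

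Cluster 46 did not hold all high-scoring cells. Of 587 cells with an S or G2M score above 0.3, a limit chosen after the scores had been seen, 285 were in cluster 46 and 302 elsewhere, and 141 cells lay within 0.05 of the limit. A range of scores is not a cell type, and what follows is a description with no test. By library, cluster 46 held 22.9%, 37.3%, 22.9% and 28.8% of the high-scoring cells in 2-day cold. In thermoneutral housing it held 50.7%, 61.5%, 83.3% and 73.7%, without overlap. At room temperature it held 57.9% to 84.6% and in 7-day cold 23.1% to 66.7%. The cells counted are those of cluster 46, whose share of all cells already separated 2-day cold from thermoneutral housing. The lack of overlap is therefore not a separate result. All high-scoring cells together were 0.497% ± 0.106 of cells in 2-day cold and 0.774% ± 0.468 in thermoneutral housing (SD, n = 4 each), and those outside cluster 46 were 0.355% ± 0.0635 and 0.294% ± 0.287. Both pairs overlapped. Without thermoneutral replicate 1, at 0.700%, the thermoneutral mean outside cluster 46 was 0.158% ± 0.116 (n = 3). Without replicate 2, 3 or 4 instead, this mean was 0.294%, 0.358% or 0.364% (n = 3 each).

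The 302 cells elsewhere were mostly in 5 clusters, named here because they held the most of them, 203 in all. Cluster 18 held 67, and of its named cells 98.9% carried a name beginning with EC, kept here as a label. It had 2, 9, 23 and 25 high-scoring cells in the 2-day libraries, of 285, 216, 161 and 150 cells, against 1, 0, 0 and 0 in the thermoneutral ones, of 204, 30, 59 and 79 cells. Cluster 12, whose named cells were 96.4% ECAP, had 20 of 893 cells in thermoneutral housing, 3 of 503 at room temperature, 20 of 1051 in 2-day cold and 11 of 165 in 7-day cold, the highest share at 6.67%. Of these, 18 came from thermoneutral replicate 1 and 11 from 2-day replicate 1. The 7-day share pools 6 of 34, 1 of 30, 0 of 21 and 4 of 80 cells in replicates 1 to 4. Clusters 31 and 29, with no named cells, had 5 of 353 and 4 of 279 cells in 2-day cold and 23 of 413 and 19 of 361 in thermoneutral housing. Of the thermoneutral ones, 18 and 16 came from replicate 1, the library that also had the largest number of cells in cluster 46. Cluster 13, whose named cells were 99.0% AP, had 11 of 1050 in 2-day cold and 3 of 658 in thermoneutral housing. No barcode was found in cluster 46 in more than 1 library, and 7 of its 316 barcodes also occurred elsewhere in another library.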

How the data were processed

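The files analysed were 2 tables of per-cell annotations. The submitters' processing notes name STAR, Cell Ranger 3.0.1 and the mm10 build. Cell filters, integration and clustering parameters: not given in the sources used here. UMI and gene counts per cell were deposited by the authors without normalisation. The mitochondrial fraction in the deposited table ran between 0 and 1 and is printed as percent. The S and G2M score, the phase call, the cluster numbers and the cell names were deposited by the authors; other deposited columns were not used. Libraries were linked to samples by the description label, and their housing taken from the sample titles.

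From the tables, cells per cluster and library were counted. The test took the 55 of 61 clusters that averaged 10 or more cells a library. Log2 odds of each share, after adding 0.5 cells on both sides, were modelled in limma 3.58.1 (R 4.3.3), with the 4 groups in one fit, Benjamini-Hochberg adjustment within a contrast, a threshold of 0.05 and two-sided tests. Values within cluster 46 (1 per library) were compared over the 4 groups by exact permutation of the between-group sum of squares, over 15765750 assignments, and ratios to like clusters by exact permutation over 70. The clusters named are cluster 46, its like clusters by score, and those sharing its cluster at another resolution; clusters 18, 12, 31, 29 and 13, which hold the most other high-scoring cells, were chosen after their values were seen. Alternatives were other scales, edgeR 4.0.16 (without scaling and with TMM), cell filters, covariates and leaving out libraries. The limma step was tested on simulated data. The cluster, the comparisons and the tests were chosen with earlier results of these data known. No pair of libraries of a group agreed within sampling noise, with a chi-square per degree of freedom over clusters of at least 12.2, and no pair of libraries shared more than 39 barcodes.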

Additional observations from a re-analysis of the deposited data

Results flagged for a closer look

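Among 30 group values examined for a library far from the other 3, 6 stood apart by the gap to its nearest neighbour, where chance gives about 1 in 20. The median UMI count of cluster 46 was 25256 in thermoneutral replicate 2, against 9062 to 11775 in the other thermoneutral libraries, and its median number of genes there was 4451.5. That library held 8 cells of the cluster. In 2-day cold, replicate 2 had a median of 14055 UMIs, against 8114 to 8288 in the others. The mean S score was lowest in replicate 1 of both groups, with 0.293 in 2-day cold and 0.316 in thermoneutral housing. In 2-day cold replicate 1 the mean G2M score was 0.554, against 0.599 to 0.604 in the other 3. The part of depth in these values was not tested.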

How the results depend on the processing

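The fall of cluster 46 in 2-day cold against thermoneutral housing kept its direction in all 32 alternatives and its call in 16. The call was lost (limma estimates) with the arcsine scale (-0.0320 on that scale, adjusted p = 0.132), among cells under 20% mitochondrial UMIs (-1.45), with the median UMI count or more (-1.36), called S or G2M (-1.75), without clusters 11, 23, 36 and 45 (-1.53), in libraries of 3000 cells or more (-1.73), with the 2 groups alone (-1.75), and, as settings added after seeing the data, above a shared UMI floor of 1921 (-1.55) or within the coarse clusters (-1.55). With a replicate block it was lost at -1.75 (limma, adjusted p = 0.0532). Whether the numbers pair the libraries was not settled. Of 24 same-numbered pairs, 19 correlated above 0.1, with a median of 0.26 and a range of -0.21 to 0.69. Of 16 libraries, 8 correlated best with their own number. No level for unlike numbers is given here, so the result with the block stands beside the main one. Of the 16, 14 correlated best with a library of their own pair of numbers (1 and 2, or 3 and 4), and with these pairs of numbers as a covariate the call was kept (adjusted p = 0.0261). The block changed no other call. Leaving out libraries gave -2.04 to -1.51. With edgeR it passed (-1.78, and -1.66 with TMM).

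The other 5 share comparisons had no call in any alternative; 7-day cold minus room temperature, at -0.03, changed sign with libraries of 3000 cells or more (0.48) and ranged from -0.19 to 0.20 without single libraries. Against cluster 19, the ratio in 2-day cold turned to 0.0221 among cells with the median UMI count or more, and that to cluster 25 shrank to -0.0292. Without single libraries the ratio to cluster 19 ranged from -0.35 to 0.44 at room temperature and from -0.23 to 0.23 in 7-day cold, and that to cluster 25 from -0.31 to 0.44 at room temperature. The size of the G2M score difference ranged from 0.123 to 0.184 without single libraries, with 1 call.

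Calls over all clusters in 2-day cold minus thermoneutral housing, 5 in the main test, were 3 with the arcsine scale, 2 under 20% mitochondrial UMIs, 3 with the median UMI count or more, 2 among cells called S or G2M, 0 without clusters 11, 23, 36 and 45, and 1 within the coarse clusters. For 2-day cold minus room temperature, 3 in the main test, they were 6 with TMM, 0 with the median UMI count or more, 0 without the 4 clusters, 1 within the coarse clusters and 2 to 5 without single libraries. For 7-day minus 2-day cold, 1 in the main test, they were 3 with TMM, 2 under 20% mitochondrial UMIs, 8 with the median UMI count or more, 3 among S or G2M cells, 0 without the 4 clusters, 3 in large libraries, 0 above the UMI floor and 0 to 4 without single libraries. For 7-day cold minus thermoneutral housing, 0 in the main test, they were 3 under 20% mitochondrial UMIs, 2 among S or G2M cells and 0 to 1 without single libraries; minus room temperature, 0 in the main test, they were 2 and 2 with these filters. The cause of these moves was not tested, and filters also changed the number of clusters or libraries tested. With 3 to 77 cells of cluster 46 per library, counting error limits each share.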
